A study of Mus musculus with 16 samples.

Results

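Astrocyte genes were followed in the mouse hippocampus as a list of 39 genes known from astrocytes, with 1 microarray probe taken per gene, that of the highest mean signal over the 16 arrays. Probes for 37 of the 39 genes were found among the 25697 probes of the array table by symbol or by an older symbol of the same Entrez gene. Of these genes 10 had several probes. Other probes are described below for *Aldh1l1*, *Slc1a2*, *Dbi* and *Ppap2b*, but not for *Fgfr3*, *Ttyh1*, *Acsl6*, *Cbs*, *Htra1* and *Sparc*. *Kcnj10* and *Cpe* had no probe in the table, *Aldh1l1* is listed there as *Fthfd*, and *Ppap2b* is the older symbol of *Plpp3*. Total hippocampal RNA was read on Illumina MouseRef-8 v2 beadchips, 1 mouse per array, from 4 WT and 4 Mef2c-het mice at each of postnatal day (P) 1 and P30. The Mef2c-het mice, labelled KO, carried 1 conventional allele of *Mef2c* lacking exon 2 in every cell of the body, on the C57BL/6J background, and WT mice were their littermates by the study's description of the cross. No treatment is stated for any group, and the labels give neither sex, litter nor chip.

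Astrocytes arise from radial glia around birth and mature over the first postnatal weeks, when they extend fine processes around synapses and blood vessels. Mature astrocytes clear glutamate and potassium from the synaptic cleft, couple to each other through gap junctions, supply lipids and metabolites to neurons and secrete proteins that act on synapses. Several of the genes followed here, among them *Apoe*, *Clu*, *Sparc*, *Dbi* and the metallothioneins, are also expressed by other cells of the brain, so that the list marks astrocytes most firmly where it holds genes such as *Aldh1l1*, *Aqp4*, *Gjb6* and *Slc1a2*.

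The probes of 29 of the 37 genes were detected on all 16 arrays (detection p under 0.05), whereas those of *S100b*, *Glul*, *Slc4a4*, *Prodh*, *Agt*, *Pla2g7* and *Sparcl1* were detected on some arrays and that of *Mlc1* on none. The median number of beads behind a probe was 36 to 39, and 12638 to 14150 probes were detected on each. Of the 6 hippocampal marker genes listed, 4 to 6 were detected on all 4 arrays of a group. The 2 *Mef2c* probes that could be tested had log2 fold changes of -0.29 and -0.24 in Mef2c-het over WT at P30 (limma, adjusted p = 0.976 for both) and of 0.07 and -0.01 at P1 (limma, adjusted p = 1.00 for both), and whether they lie in the deleted exon is not given in the sources used here. By *Xist* and Y-linked genes all 8 P30 mice were male, against 1 of 4 WT and 2 of 4 Mef2c-het mice at P1, so that sex differed with age. Within each age a few arrays stood apart over all probes, WT replicates 6 and 7 and Mef2c-het replicate 7 at P30, and replicate 8 of both genotypes at P1. Their lowest signals were raised, with a 5th percentile of 140.0 to 161 against 106 to 131 on the other 11 arrays.

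**Figure D1:**
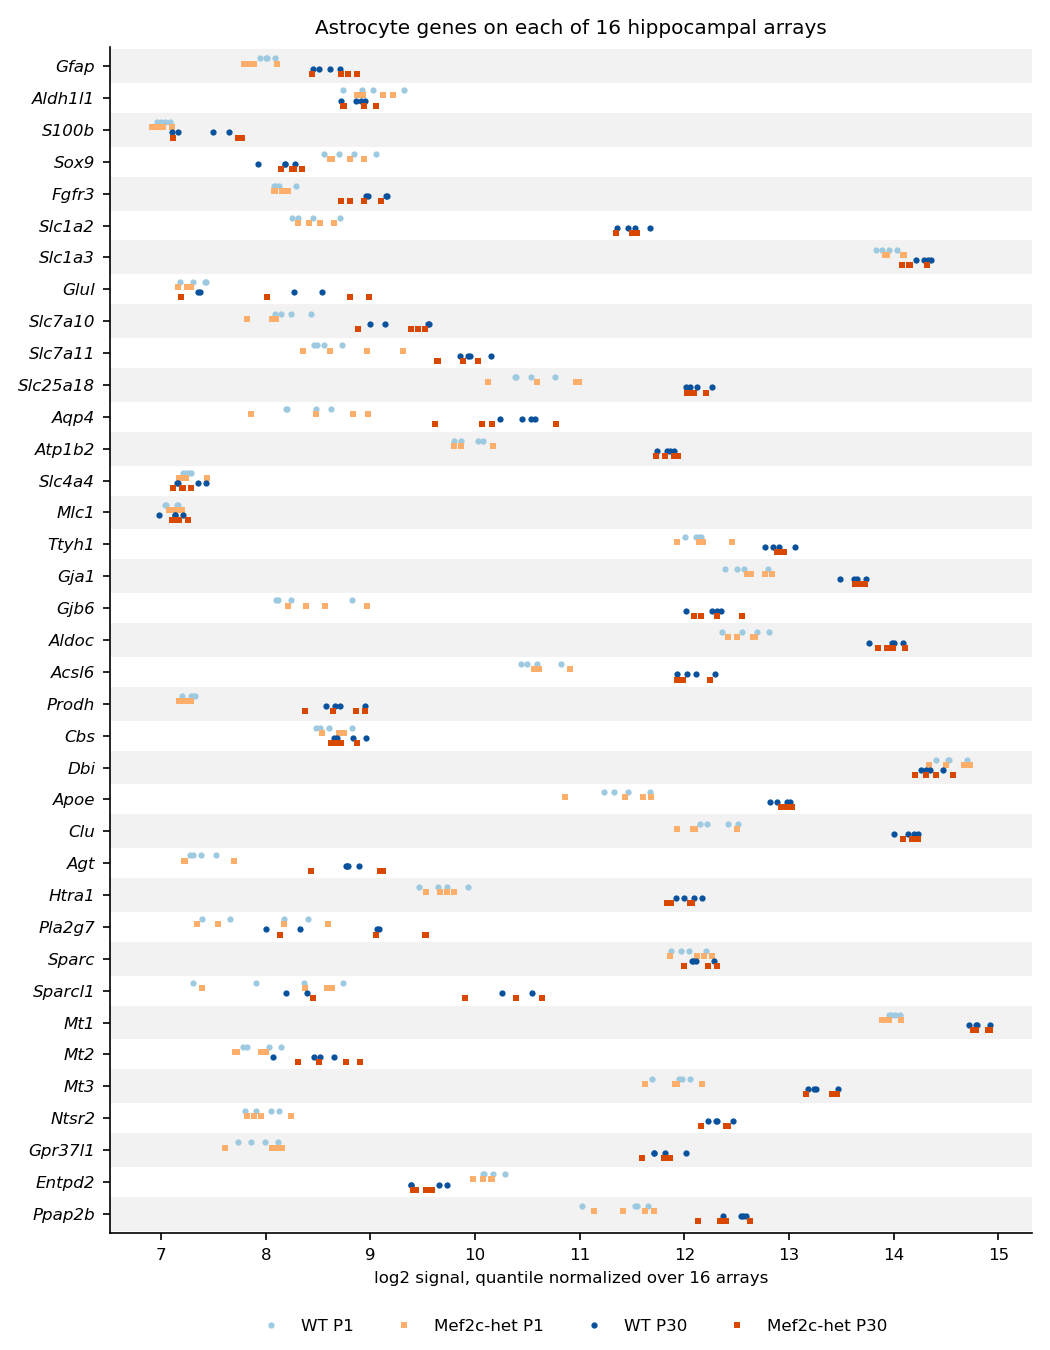
Log2 signal of each of the 37 astrocyte genes (rows) on each of the 16 arrays, quantile normalized together; circles are WT and squares Mef2c-het mice, pale at P1 and dark at P30. Pale and dark points separate for most genes, while circles and squares of one age lie together; the P30 points lie to the left of the P1 points for Sox9 and Entpd2.

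Most astrocyte genes rose between P1 and P30 in WT hippocampus. Of the 36 genes tested, 26 were higher at P30 and 2 were lower (limma, Benjamini-Hochberg adjusted p under 0.05 over 14777 probes), whereas 28.0% of all probes tested were higher and 31.7% lower. The median log2 fold change of the 36 genes was 1.08, against -0.03 over all probes. A rise of at least 2-fold was found for 19 genes, against 6.63% of all probes. For 25 genes every WT P30 array lay above every WT P1 array, against 25.3% of all probes, and for 2 genes below, against 27.8%. Because whole tissue was measured, fewer astrocytes and less RNA per astrocyte at P1 cannot be told apart. With sex as a covariate 27 genes were higher and 2 lower, against 23.0% and 28.3% of all probes. There *S100b* no longer passed (limma adjusted p = 0.115), and *Pla2g7* and *Sparcl1* did. Sex varied at P1 alone, where the males were replicate 8 of both genotypes, whose arrays stood apart, and Mef2c-het replicate 2. In WT mice sex and standing apart at P1 therefore cannot be told apart.

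**Figure D2:**
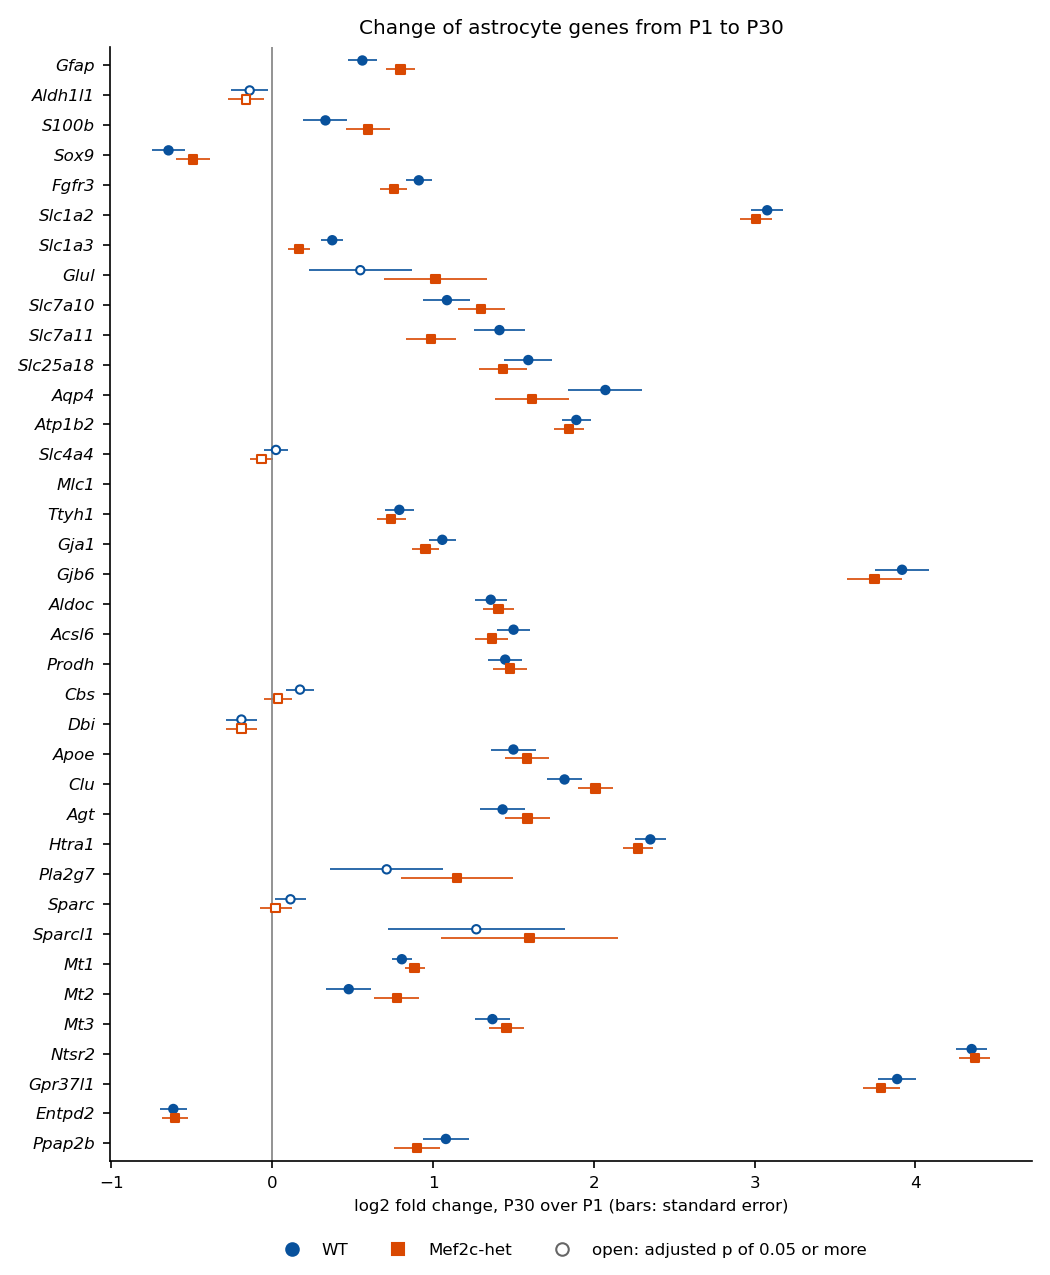
Log2 fold change of each astrocyte gene from P1 to P30 in WT (circles) and Mef2c-het (squares) mice, with its standard error as a bar; filled symbols have a limma adjusted p under 0.05. The largest rises are those of Ntsr2, Gjb6, Gpr37l1 and Slc1a2, at 3.08 to 4.35 in WT, Sox9 and Entpd2 fall in both genotypes, and Mlc1 was not tested.

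Of the 3 largest log2 fold changes, 2 were those of receptors at the astrocyte surface, *Ntsr2* and *Gpr37l1*. *Ntsr2*, a neurotensin receptor, was at 7.80, 7.91, 8.05 and 8.12 on the WT P1 arrays and at 12.22, 12.30, 12.31 and 12.46 on the WT P30 arrays, on the log2 scale of the signal. The ages were far apart, with a log2 fold change of 4.35 (standard error 0.095, limma adjusted p = 2.85e-15), or 20.4-fold. *Gpr37l1*, an orphan receptor of glia, went from 7.74 to 8.12 at P1 to 11.71 to 12.02 at P30, a log2 fold change of 3.89 (standard error 0.12, limma adjusted p = 1.16e-13). *Ppap2b*, which encodes a lipid phosphate phosphatase, rose by a log2 fold change of 1.08 (standard error 0.14, limma adjusted p = 5.68e-06). Its second probe had a smaller log2 fold change of 0.52, which also passed the test.

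*Entpd2*, an ectonucleotidase that removes extracellular ATP, moved the other way from these receptors. It was at 10.07, 10.08, 10.17 and 10.28 on the WT P1 arrays and at 9.38, 9.39, 9.66 and 9.73 on the WT P30 arrays. Every P30 array was below every P1 array, and the log2 fold change was -0.61 (standard error 0.083, limma adjusted p = 7.68e-06).

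Promoter sequence from RefSeq on GRCm38.p6 was held for 33 of the 39 genes, in 41 windows that end at an annotated start. In the 250 bases before the start, matches were sought on both strands to TTCNNNGAA, a palindrome of the kind bound by STAT factors, and to TTGGC, the short site read by 1 unit of an NFI dimer, since STAT and NFI factors both have known roles in astrocyte development. The palindrome was held by 17.1% of these windows against 7.02% of all 32851 promoters, and the NFI letters by 51.2% against 41.5%, which is a description and no test. The windows of the 3 genes of largest rise are shown, cut where the annotated gene begins, with matches in capitals. They lie at chr12:16653220-16653442 on the plus strand for *Ntsr2*, at chr14:57133612-57133861 on the minus strand for *Gjb6* and at chr1:135167682-135167931 on the minus strand for *Gpr37l1*.
Ntsr2: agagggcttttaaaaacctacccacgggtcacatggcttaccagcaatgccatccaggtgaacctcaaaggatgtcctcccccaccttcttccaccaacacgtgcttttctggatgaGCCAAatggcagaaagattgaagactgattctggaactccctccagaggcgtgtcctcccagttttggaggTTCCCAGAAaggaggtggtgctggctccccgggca
Gjb6: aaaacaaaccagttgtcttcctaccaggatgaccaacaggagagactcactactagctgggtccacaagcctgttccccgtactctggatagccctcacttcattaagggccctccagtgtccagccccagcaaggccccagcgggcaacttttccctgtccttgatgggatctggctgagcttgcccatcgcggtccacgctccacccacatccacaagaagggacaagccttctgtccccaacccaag
Gpr37l1: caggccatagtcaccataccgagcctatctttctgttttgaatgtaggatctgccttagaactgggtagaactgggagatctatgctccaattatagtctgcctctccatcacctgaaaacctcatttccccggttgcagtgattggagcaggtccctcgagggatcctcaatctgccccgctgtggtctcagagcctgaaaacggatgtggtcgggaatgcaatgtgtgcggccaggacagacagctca
The NFI letters (as GCCAA on the strand shown) and the palindrome were held by the *Ntsr2* window alone among these 3, starting 106 and 35 bases before the gene, and the *Gjb6* and *Gpr37l1* windows held neither.

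The connexins that couple astrocytes both rose. *Gjb6*, which encodes connexin 30, was at 8.09, 8.12, 8.24 and 8.83 on the WT P1 arrays and at 12.02, 12.26, 12.31 and 12.35 on the WT P30 arrays, a log2 fold change of 3.92 (standard error 0.17, limma adjusted p = 7.75e-12), or 15.1-fold. *Gja1*, which encodes connexin 43 and is already made by radial glia, rose from 12.39 to 12.80 at P1 to 13.49 to 13.73 at P30. Its log2 fold change was 1.06 (standard error 0.083, limma adjusted p = 1.13e-08).

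Of the 6 genes of glutamate and other amino acid handling, 5 were higher at P30 in WT mice. The glutamate transporter gene *Slc1a2* (GLT-1) was at 8.25, 8.31, 8.45 and 8.71 on the WT P1 arrays and at 11.36, 11.47, 11.53 and 11.67 on the WT P30 arrays. This was an 8.45-fold rise (log2 fold change 3.08, standard error 0.10, limma adjusted p = 3.03e-13). *Slc1a3* (GLAST), the transporter of radial glia and young astrocytes, was already at 13.83 to 14.03 at P1 and at 14.22 to 14.36 at P30, a log2 fold change of 0.37 (standard error 0.068, limma adjusted p = 0.000163). Levels of the 2 transporters cannot be set against each other, since they come from different probes. A second *Slc1a2* probe rose by a log2 fold change of 2.46, and another dim one had a log2 fold change of 0.14 that did not pass the test. The mitochondrial glutamate carrier gene *Slc25a18* rose by a log2 fold change of 1.59, the cystine-glutamate exchanger gene *Slc7a11* by 1.41 and the neutral amino acid transporter gene *Slc7a10* by 1.09, with all WT P30 arrays above all WT P1 arrays for each. *Glul*, glutamine synthetase, had a log2 fold change of 0.55 with a standard error of 0.32 and did not pass the test (limma adjusted p = 0.155).

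Among the genes of ion and water balance, 3 of the 4 tested were higher. *Aqp4*, the water channel of astrocyte endfeet, was at 8.20, 8.20, 8.48 and 8.62 on the WT P1 arrays and at 10.24, 10.45, 10.53 and 10.57 on the WT P30 arrays. The rise was 4.21-fold (log2 fold change 2.07, standard error 0.23, limma adjusted p = 8.17e-07). *Atp1b2*, a subunit of the sodium pump, rose by a log2 fold change of 1.89 (standard error 0.091, limma adjusted p = 2.91e-11), and the chloride channel family member *Ttyh1* by 0.79 (standard error 0.090, limma adjusted p = 1.02e-06). *Slc4a4*, a bicarbonate transporter gene, had a log2 fold change of 0.02 and was detected on 4 of the 16 arrays. *Mlc1*, a membrane protein of endfeet, could not be tested, since its probe was detected on no array.

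The identity genes and regulators did not share one direction. *Gfap*, the intermediate filament of astrocytes, was between 7.95 and 8.08 on the 4 WT P1 arrays, with a median of 8.01, and at 8.46, 8.51, 8.62 and 8.71 on the WT P30 arrays. The groups did not overlap, but the log2 fold change of 0.56 (standard error 0.091, limma adjusted p = 5.22e-05) was below the median of the list. *Sox9*, a transcription factor of radial glia and astrocytes, fell from 8.56, 8.70, 8.84 and 9.05 at P1 to 7.93, 8.18, 8.19 and 8.28 at P30, a log2 fold change of -0.64 (standard error 0.10, limma adjusted p = 5.10e-05). *Fgfr3*, a growth factor receptor of the lineage, rose by a log2 fold change of 0.91 (standard error 0.082, limma adjusted p = 6.74e-08). *Aldh1l1*, a folate enzyme used as a broad astrocyte marker, was at 8.73 to 9.32 at P1 and at 8.72 to 8.95 at P30, and its log2 fold change of -0.14 did not pass the test (limma adjusted p = 0.308). None of the other 3 *Aldh1l1* probes passed it either, with log2 fold changes of -0.11, -0.03 and -0.01. *S100b*, a calcium-binding protein, was detected on no P1 array and on 2 of the 4 WT P30 arrays, so that only a bound of at least 1.03-fold higher holds beside its limma adjusted p = 0.0464. This adjusted p lay above 0.05 under 10 of the alternatives, among them 6 that left out 1 of the WT arrays (replicates 1, 4, 5 and 8 at P1, and 2 and 3 at P30).

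Of the 5 metabolic enzymes, 3 rose in WT mice. *Aldoc*, the glycolytic aldolase of astrocytes, went from 12.35 to 12.81 at P1 to 13.77 to 14.08 at P30, a log2 fold change of 1.36 (standard error 0.098, limma adjusted p = 4.20e-09). *Acsl6*, an acyl-CoA synthetase, rose by a log2 fold change of 1.50 and *Prodh*, proline dehydrogenase, by 1.45, the latter detected on 3 of the 8 P1 arrays and on all 8 P30 arrays. *Cbs*, cystathionine beta-synthase, had a log2 fold change of 0.17 (limma adjusted p = 0.107), which passed the test without WT replicate 4 at P1 (0.24) and under cyclic loess (0.23). *Dbi*, an acyl-CoA binding protein that many cells make, had a log2 fold change of -0.19 at the probe of highest signal (limma adjusted p = 0.0960), while its other 2 probes were lower at P30, with log2 fold changes of -0.63 and -0.53 that both passed the test. The first probe passed it as well under cyclic loess (-0.33) and median scaling (-0.43).

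Of the 7 lipid carriers and secreted proteins measured, 4 rose in WT mice, and the group held the gene of widest spread between arrays, *Sparcl1*. *Apoe*, the main lipid carrier made by astrocytes, was at 11.23, 11.33, 11.46 and 11.67 on the WT P1 arrays and at 12.82, 12.89, 12.98 and 13.01 on the WT P30 arrays, a log2 fold change of 1.50 (standard error 0.14, limma adjusted p = 8.47e-08). *Clu*, clusterin, rose by a log2 fold change of 1.82, and the secreted protease gene *Htra1* by 2.35, from 9.46 to 9.93 at P1 to 11.92 to 12.17 at P30. *Agt*, angiotensinogen, rose by 1.43. *Sparc*, an extracellular glycoprotein that opposes synapse formation and is also made by vessels and microglia, was at 11.87 to 12.21 at P1 and at 12.08 to 12.28 at P30, with a log2 fold change of 0.11 that did not pass the test (limma adjusted p = 0.342). Its relative *Sparcl1* (hevin), which promotes synapses, had the larger log2 fold change of 1.27 but a standard error of 0.55, and narrowly missed the threshold (limma adjusted p = 0.0581). It passed the test without WT replicate 5 at P1 (1.48) and without WT replicate 6 (1.59) or 7 (1.66) at P30, and with sex as a covariate (1.91, limma adjusted p = 0.0264). *Pla2g7*, a secreted phospholipase, likewise had a log2 fold change of 0.71 with a standard error of 0.35 (limma adjusted p = 0.0910). It passed the test without WT replicate 7 at P30 (0.93) and with sex as a covariate (1.34, limma adjusted p = 0.00781). The only male WT mouse at P1 was replicate 8, whose array stood apart.

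All 3 metallothionein genes, which lie together within 27721 bases on chromosome 8, were higher at P30 in WT mice. *Mt1* was at 13.96, 13.97, 14.01 and 14.06 on the WT P1 arrays and at 14.72, 14.79, 14.80 and 14.92 on the WT P30 arrays, a log2 fold change of 0.81 (standard error 0.062, limma adjusted p = 8.67e-09). *Mt3*, the form of the brain, rose from 11.69, 11.95, 11.98 and 12.05 to 13.18, 13.24, 13.25 and 13.47, a log2 fold change of 1.37 (standard error 0.11, limma adjusted p = 1.44e-08). *Mt2* was dim, with overlapping groups, and its log2 fold change was 0.48 (standard error 0.14, limma adjusted p = 0.00729), which missed the threshold under median scaling (0.40, limma adjusted p = 0.0518). Metallothioneins bind zinc and copper, and metal induces *Mt1* and *Mt2* through metal response elements. The windows of *Mt2* and *Mt3* are given to show where the core letters of this element, TGCACNC or TGCGCNC, stand in capitals on either strand, at chr8:94172368-94172617 and chr8:94152357-94152606 on the plus strand of GRCm38.p6 by RefSeq.
Mt2: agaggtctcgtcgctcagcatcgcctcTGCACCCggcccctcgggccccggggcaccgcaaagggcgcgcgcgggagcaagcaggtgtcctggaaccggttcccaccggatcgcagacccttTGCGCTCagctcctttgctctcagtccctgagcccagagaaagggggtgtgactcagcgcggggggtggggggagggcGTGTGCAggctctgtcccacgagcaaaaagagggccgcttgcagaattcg
Mt3: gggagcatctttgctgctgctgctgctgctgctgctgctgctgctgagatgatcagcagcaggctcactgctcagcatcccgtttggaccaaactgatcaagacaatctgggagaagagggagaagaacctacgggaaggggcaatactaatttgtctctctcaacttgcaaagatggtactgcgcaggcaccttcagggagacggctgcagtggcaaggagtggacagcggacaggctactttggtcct
The *Mt2* window held 3 matches, starting 223, 128 and 50 bases before the gene, and the *Mt3* window held none. At least 1 match was held by 22.0% of the 41 windows of the listed genes, close to the 21.4% of all promoters. The *Mt1* window, which held 1 match, is not shown, since it overlaps the annotated gene.

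Some genes lay at other levels on the arrays that stood apart than on the rest, about as often as probes in general did. For a few the difference of means was near the ends of its range over all tested probes. At P30 it was at percentile 0.0068 for *Sparcl1*, 0.86 for *Glul* and 99.8 for *Aqp4*. At P1 it was at percentile 99.9 for *Gjb6* and 99.7 for *Aqp4*. *Sparcl1* was at 8.19, 8.40 and 8.45 on the 3 P30 arrays that stood apart and at 9.90 to 10.64 on the other 5, and at 7.31 and 7.39 on the 2 such P1 arrays and 7.91 to 8.74 on the other 6. *Glul* was at 7.19, 7.35 and 7.37 on the former P30 arrays and at 8.01 to 8.99 on the latter. Arrays of 1 genotype and age thus differed widely for these genes, in both genotypes. *Pla2g7*, *S100b*, *Slc7a10* and *Gja1* also lay lower on all 3 of these P30 arrays than on all 5 others, and *Fgfr3*, *Slc1a3*, *Slc25a18*, *Cbs* and *Entpd2* lay higher. These 6 lower and 5 higher genes of 36 were close to the shares of all probes, 13.1% and 15.6%. The arrays were grouped from the same signals, so no test is given. At P1, *Glul*, *Prodh*, *Pla2g7* and *Sparcl1* lay lower on both such arrays than on the other 6, and *Slc1a2*, *Gja1*, *Gjb6*, *Acsl6*, *Agt* and *Gpr37l1* lay higher. These 4 lower and 6 higher genes of 36 were also close to the shares of all probes, 13.2% and 15.2%. *Glul* and *Prodh* were dim there, each detected on 2 of the WT and 1 of the Mef2c-het P1 arrays. *Gja1* lay lower at P30 and higher at P1. The fit was also run without these 5 arrays, a choice made after the data were seen that left 2 or 3 arrays per group. Of the 35 genes tested there, 28 were higher and 2 lower in WT mice, against 3815 and 4539 of 14417 probes. *Sparcl1*, *Glul* and *Pla2g7* passed the test (log2 fold changes of 2.09, 1.07 and 1.02) while *Mt2* did not (0.27, limma adjusted p = 0.183). *Mt2* itself did not separate on these P30 arrays, whose values lay within the 8.07 to 8.90 of the others.

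**Figure D3:**
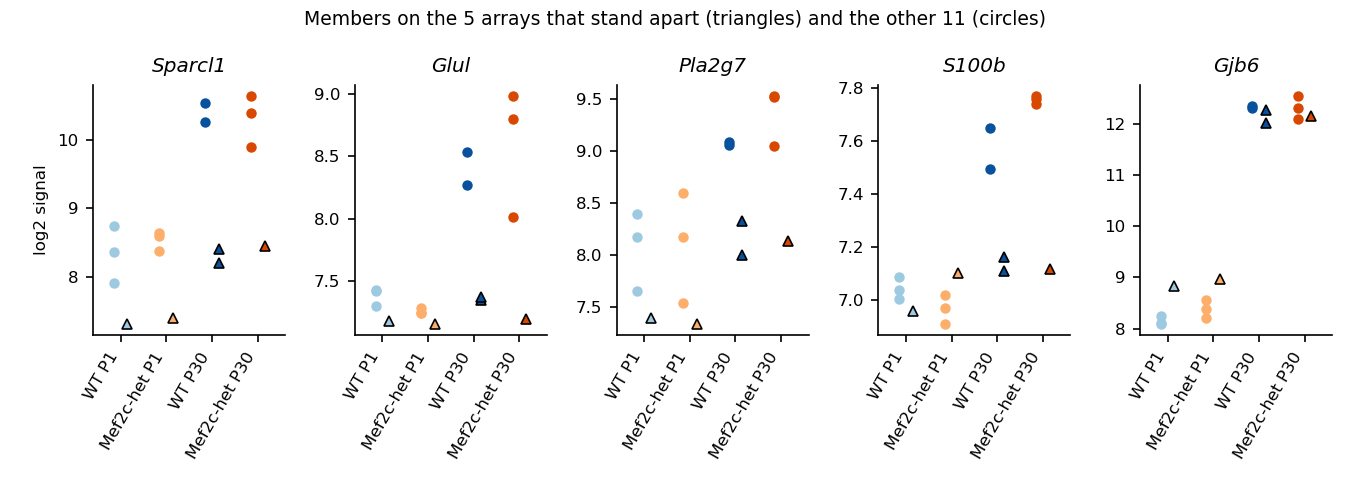
Log2 signal of 5 astrocyte genes by group; triangles are the 5 arrays that stood apart over all probes and circles the other 11. The triangles lie below the circles of the same age for Sparcl1, Glul and Pla2g7, and at P30 for S100b, whereas for Gjb6 they lie above at P1 and overlap the circles at P30.

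The rise with age was also found in Mef2c-het mice. There 29 of the 36 genes were higher and 2 lower at P30 (limma, adjusted p under 0.05), against 26.9% and 31.4% of all probes, with a median log2 fold change of 1.08. The 26 genes that were higher in WT mice were all higher in Mef2c-het mice, and *Sox9* and *Entpd2* were lower in both, with log2 fold changes of -0.49 and -0.60 in Mef2c-het mice. *Ntsr2* went from 7.82 to 8.24 at P1 to 12.16 to 12.41 at P30 in Mef2c-het mice, a log2 fold change of 4.37 (standard error 0.095, limma adjusted p = 2.87e-15). *Gpr37l1* had a log2 fold change of 3.79, *Gjb6* of 3.74 and *Slc1a2* of 3.01. *Gfap* was at 7.79, 7.84, 7.89 and 8.11 on the Mef2c-het P1 arrays and at 8.44, 8.72, 8.78 and 8.87 on the Mef2c-het P30 arrays, a log2 fold change of 0.80 (standard error 0.091, limma adjusted p = 1.13e-06). The rise of *Slc1a3* was small, at 0.17 (standard error 0.068, limma adjusted p = 0.0445), its groups overlapped, and it did not pass the test under 9 alternatives, among them those without Mef2c-het replicates 2 and 4 at P1 and without replicates 3, 6 and 7 at P30.

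*Glul*, *Pla2g7* and *Sparcl1* passed the test in Mef2c-het mice alone, with log2 fold changes of 1.02, 1.15 and 1.60. A pass in one genotype does not show a difference between them, and the tests of the differences gave 0.47, 0.44 and 0.33 with standard errors of 0.45, 0.49 and 0.78 (limma adjusted p = 0.998 for each). For *Sparcl1* the adjusted p in Mef2c-het mice was above 0.05 without replicate 5 or 6 at P30 or replicate 8 at P1, with log2 fold changes of 1.34, 1.41 and 1.32. *Glul*, *Pla2g7* and *Sparcl1* were among the 6 genes that lay lower on the P30 arrays that stood apart, of which 2 were WT and 1 Mef2c-het. Without the 5 arrays that stood apart, a choice made after the data were seen, each of these genes passed the test in both genotypes. The differences between genotypes were then 0.34, 0.27 and -0.29 (limma adjusted p = 0.994 for each). The cause of this change was not tested.

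No astrocyte gene passed the test between genotypes at P30. Of the 35 genes tested, 0 had an adjusted p under 0.05 in limma, where 1 of 13413 probes did (0.00746%), and 0 had an unadjusted p under 0.05, where 2.36% of all probes did. Log2 fold changes of Mef2c-het over WT were positive for 20 genes and negative for 15, with a median of 0.01 against -0.01 over all probes, and 31 of the 35 were within 0.25 of 0. The groups overlapped for every gene, where 1.75% of all probes had groups that did not. The median standard error was 0.090, and the lowest adjusted p was 0.976.

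**Figure D4:**
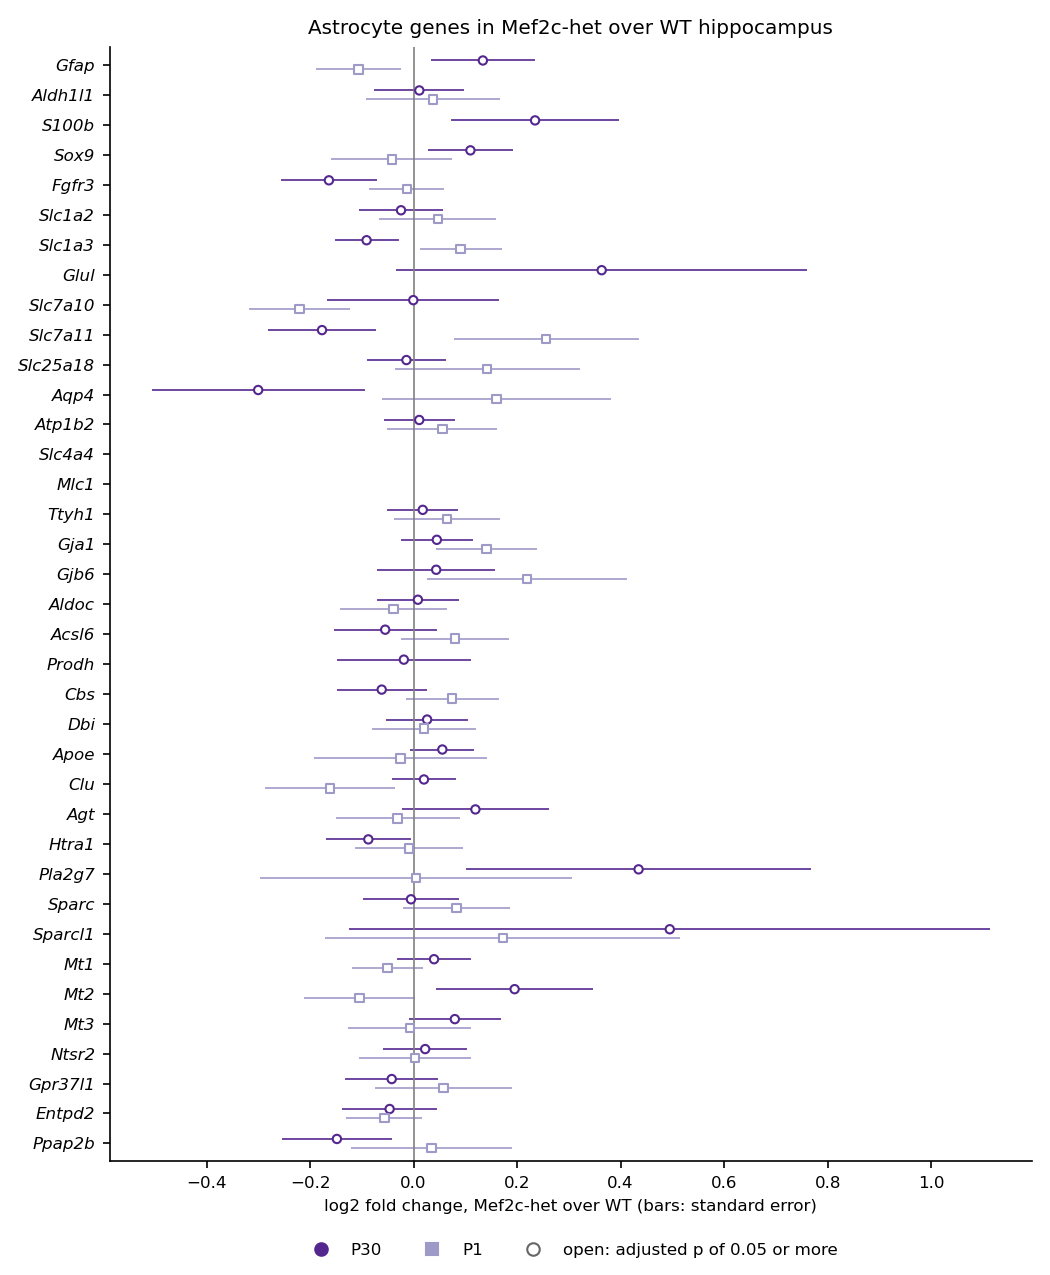
Log2 fold change of Mef2c-het over WT for each astrocyte gene at P30 (circles) and P1 (squares), with its standard error as a bar; open symbols have a limma adjusted p of 0.05 or more. All symbols are open and lie between -0.30 and 0.49, and the widest bars belong to Sparcl1, Glul and Pla2g7.

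The most negative log2 fold change at P30 was that of *Aqp4* and the most positive that of *Sparcl1*. *Aqp4* was at 10.20, 10.41, 10.49 and 10.53 on the WT arrays and at 9.57, 10.01, 10.11 and 10.74 on the Mef2c-het arrays, normalized over the 8 P30 arrays. One Mef2c-het array was the highest of all 8, and the genotypes differed by a log2 fold change of -0.30 (standard error 0.21, with p = 0.314 in a two-sided exact permutation test). It was -0.51 without Mef2c-het replicate 7, -0.12 without Mef2c-het replicate 6 and -0.45 without the arrays that stood apart, and it did not pass the test in any of these. *Sparcl1* had a log2 fold change of 0.49 with a standard error of 0.62 (exact permutation p = 0.571), and without the arrays that stood apart it was -0.09. *Gfap*, the gene read most often as a sign of astrocyte reactivity, was at 8.42, 8.47, 8.58 and 8.68 in WT and at 8.41, 8.69, 8.75 and 8.84 in Mef2c-het mice. It differed by a log2 fold change of 0.13 (standard error 0.10, limma adjusted p = 0.976), and the groups overlapped. The genes of largest rise with age were close between genotypes, with log2 fold changes at P30 of 0.02 for *Ntsr2* (standard error 0.082), 0.04 for *Gjb6* (standard error 0.11), -0.04 for *Gpr37l1* (standard error 0.090) and -0.02 for *Slc1a2* (standard error 0.082). The lowest exact permutation p at P30 was that of *Slc1a3*, at 0.0857 with a log2 fold change of -0.09 (standard error 0.062), where 4 arrays against 4 can give no less than 0.0286.

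At P1, likewise, 0 of the 32 genes tested passed the adjusted threshold in limma, as did 0.0% of 13566 probes. An unadjusted p under 0.05 was found for 1 gene, *Slc7a10*, against 1.62% of all probes, and the groups overlapped for every gene against 1.29% of all probes that did not. *Slc7a10* was at 8.11, 8.17, 8.28 and 8.47 on the WT arrays and at 7.84, 8.08, 8.10 and 8.13 on the Mef2c-het arrays, normalized over the 8 P1 arrays. Its log2 fold change was -0.22 (standard error 0.097, limma adjusted p = 1.00, exact permutation p = 0.0571), and the highest Mef2c-het array lay just above the lowest WT array. The lowest value was that of Mef2c-het replicate 8, 1 of the arrays that stood apart. The highest log2 fold change was 0.26, for *Slc7a11*, with a standard error of 0.18, the median over the genes was 0.03, and 31 of the 32 were within 0.25 of 0. For *Gfap* the log2 fold change was -0.11, with a standard error of 0.082, and for *Aqp4* it was 0.16, with one of 0.22. *S100b*, *Glul*, *Slc4a4*, *Mlc1* and *Prodh* were not tested at P1, since they were detected on fewer than 4 of the 8 arrays.

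The genotype effect was not found to differ between the ages. Of the 36 genes, 0 passed the adjusted threshold in limma, as did 0.0% of 14777 probes, and 1 had an unadjusted p under 0.05, against 2.96% of all probes. That gene was *Slc1a3*, with a log2 fold change of -0.09 at P30 and 0.09 at P1 and a difference of -0.21 (standard error 0.096, limma adjusted p = 0.998). The differences of the other genes ran from -0.46 for *Aqp4* to 0.47 for *Glul*.

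The rest of the astrocyte program was read from 3 further lists, written from general knowledge but with earlier results of these data known. Of 37 other astrocyte genes, 34 were tested, and 23 were higher and 3 lower at P30 in WT mice, with a median log2 fold change of 0.45 against -0.03 over all probes, of which 28.0% were higher and 31.7% lower. Those of smallest p were *Lcat*, a lipid-modifying enzyme (1.85), the claudin gene *Cldn10* (2.39) and the phagocytic receptor gene *Mertk* (1.83), and the 3 that fell were *Ezr*, which links membrane to actin in fine processes (-0.63), the phagocytosis bridging protein *Mfge8* (-0.48) and the endothelin receptor gene *Ednrb* (-0.34). In Mef2c-het mice 21 were higher and 4 lower, against 26.9% and 31.4% of all probes. None passed the test between genotypes at either age in limma, and 1 of 34 had an unadjusted p under 0.05 at P30 and 0 of 29 at P1, against 2.36% and 1.62% of all probes.

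Most radial glia genes fell. Of 12 tested, 11 were lower at P30 in WT mice and 1, the Notch target *Hes1*, was higher (log2 fold change 0.32), with a median of -1.07, whereas 31.7% of all probes were lower and 28.0% higher. Those of smallest p were *Tnc*, a matrix protein (-3.27), and the intermediate filaments *Nes* (-2.58) and *Vim* (-2.86), and in Mef2c-het mice also 11 were lower and 1 was higher, against 31.4% and 26.9% of all probes. *Sox9* and *Entpd2*, the 2 astrocyte genes that fell, are also made by neural stem cells. *Gja1* and *Slc1a3*, which radial glia make as well, rose, and the cause of the 2 falls was not tested. Of 22 genes tested that are used as signs of reactive astrocytes, 9 were higher and 7 lower in WT mice, with a median log2 fold change of 0.08. The share lower was close to the 31.7% of all probes, and 28.0% of all probes were higher. Among them *Serpina3n* (2.73), *Amigo2* (1.49) and *Cd14* (0.42) were higher and *B3gnt5* (-2.84), *Ptx3* (-1.76) and *Emp1* (-1.91) lower at P30. Between genotypes 0 of 19 passed the test in limma at P30, with 0 at an unadjusted p under 0.05, and 0 of 19 at P1, with 1, against 2.36% and 1.62% of all probes.

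**Figure D5:**
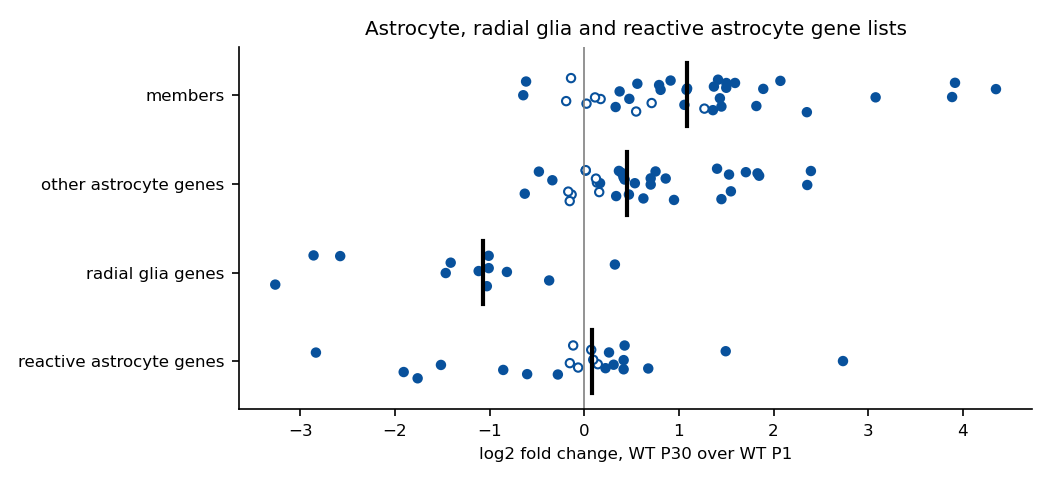
Log2 fold change of WT P30 over WT P1 for the astrocyte genes followed here (members), 37 other astrocyte genes, radial glia genes and reactive astrocyte genes as far as tested; each circle is a gene, filled where the limma adjusted p is under 0.05, the vertical bars are medians, and vertical scatter has no meaning. Medians are 1.08, 0.45, -1.07 and 0.08.

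Summed signals of markers of other cells, in which bright probes weigh most, are given beside that of the astrocyte genes. The summed signal of the 37 astrocyte genes was 93448 to 115939 at P1 and 186214 to 200411 at P30 over both genotypes. That of 10 oligodendrocyte genes, of which *Ermn* was detected on no array, was 2296 to 3465 at P1 and 92314 to 108399 at P30, that of 12 microglial genes 4056 to 5532 and 7286 to 9687, and that of 10 neuronal genes 45607 to 49647 and 53369 to 59284. The summed signal of 9 endothelial genes was 6689 to 7955 at P1 and 4917 to 6031 at P30, and that of 9 meningeal fibroblast genes 10704 to 15551 and 7890 to 12958. Single genes did not always follow these sums. Of 7 endothelial genes tested, 3 were higher and 3 lower at P30 in WT mice, and of 8 neuronal genes 4 and 3. Of 9 meningeal genes 1 was higher and 3 lower, whereas 9 of 9 oligodendrocyte and 9 of 11 microglial genes were higher. Of all probes, 28.0% were higher and 31.7% lower. *Itgam* of the microglial list and *Snap25* and *Nefl* of the neuronal list were detected on no array. Choroid plexus genes varied most within groups, from 3148 to 35255 at P1 and from 3451 to 27247 at P30. Ependymal genes were at 1997 to 4252 at P1 and at 1257 to 2313 at P30, those of oligodendrocyte precursors at 7352 to 10021 and 11798 to 16763, and those of red blood cells at 11566 to 17002 and 9375 to 13827. Between genotypes of one age the ranges of all these lists overlapped, and 0 of their tested genes passed the test in limma. Of the 11 microglial genes tested, 9 had a positive log2 fold change in Mef2c-het over WT at P30, 2 of them at an unadjusted p under 0.05 against 2.36% of all probes, and 3 had groups that did not overlap against 1.75%. At P1, 9 of the 11 were negative, 2 of them at an unadjusted p under 0.05 against 1.62% of all probes, and for the difference between the ages 3 had an unadjusted p under 0.05 against 2.96%. A shared sign was not particular to microglia. Of the endothelial genes tested, 7 of 7 were negative at P30 and 6 of 6 positive at P1, with 0 at an unadjusted p under 0.05. At P30, 4 of 4 choroid plexus genes were negative and 4 of 4 ependymal genes positive, and at P1 8 of 8 meningeal genes were positive. Of 8 neuronal genes, 4 were positive and 4 negative at P30. The part of these cells in the changes of the astrocyte genes was not tested.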

How the data were processed

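Hippocampal RNA of 16 mice was measured on 16 bead arrays, 4 for each of WT and Mef2c-het at P1 and P30, grouped by the labels. The deposited table holds, for each probe and array, a bead intensity that was not normalized, a detection p-value given by the authors' scanner software and the number of beads, also as deposited. The submitters' processing notes name lumi and limma, and the study's methods describe log2 transformation and quantile normalization by the authors, which was repeated here from the deposited intensity. The 16 arrays were normalized together for age and for the difference of the genotype effect, and the 8 arrays of an age for genotype. Probes detected (p under 0.05) on 4 or more arrays of a fit were tested with limma 3.58.1 in R 4.3.3, with Benjamini-Hochberg adjustment over all probes tested. The fit was tested on simulated data.

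All 39 genes were named, and of the other astrocyte, radial glia and reactive lists the 3 of smallest p in each direction in WT mice. Members and lists were chosen with earlier results of these data known. Sex was read from *Xist* and Y-linked probes, and arrays were clustered by average linkage on their unnormalized signals. A fold against a group in which a probe was detected on no array is given as a bound, against the higher, on each of its arrays, of the lowest signal of any detected probe and the signal of the probe itself. Alternatives were normexp correction, cyclic loess, median scaling, a stricter and no filter, all 16 arrays for genotype, trend and robust variances, sex, array cluster and replicate number as terms, the second probe of a gene, each array left out, and, chosen after seeing the data, the larger array cluster alone. Promoter windows are RefSeq's on GRCm38.p6. The number of arrays limits the precision.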

Additional observations from a re-analysis of the deposited data

Results flagged for a closer look

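Over the 37 genes and 4 groups, 148 sets of 4 arrays were examined for 1 array far from the other 3, and 8 were found where chance gives about 1 in 20, or 7.4. Each value below is the gap to the nearest array over the range of the group, on the log2 scale of the signal.

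Of these, 4 lay on arrays of Mef2c-het mice that stood apart over all probes. *S100b* was lowest on Mef2c-het replicate 7 at P30, at 7.12 against 7.74 on the nearest array (gap 0.952 of the range). On Mef2c-het replicate 8 at P1, *Slc7a10* was lowest, at 7.82 against 8.06 (0.845), while *Acsl6* was highest, at 10.91 against 10.61 (0.879), and so was *Agt*, at 7.70 against 7.23 (0.980). *Sparc* was highest on WT replicate 6 at P30, which also stood apart, at 12.28 against 12.11 (0.854). The others were *Agt* on Mef2c-het replicate 5 at P30, lowest at 8.43 against 9.09 (0.962), *Ntsr2* on the same array, lowest at 12.16 against 12.40 (0.945), and *Mt3* on Mef2c-het replicate 6 at P30, lowest at 13.17 against 13.41 (0.835).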

How the results depend on the processing

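Between genotypes 0 astrocyte genes passed the adjusted threshold in limma under any setting run (20 at P30, 21 at P1 and 28 for the difference). Medians were -0.00 to 0.06, -0.01 to 0.10 and -0.07 to 0.02. At most 6, 7 and 6 genes had an unadjusted p under 0.05, where the main fits tested 35, 32 and 36. The number of all probes at that p moved with the setting as well. At P30 it was 638 higher and 729 lower of 13257 without Mef2c-het replicate 7, against 89 and 227 of 13413 in the main fit. The 7 genes at P1 were reached with the replicate number as a block, where 7.0% of all probes had such a p. With age 27 to 31 genes passed in WT and 29 to 32 in Mef2c-het mice over 18 settings each, and no gene that passed changed direction. In the main fits 28.0% of all probes were higher and 31.7% lower in WT mice, and 26.9% and 31.4% in Mef2c-het mice. The median log2 fold change of 1.08 in WT mice became 1.36 with normexp correction, 1.18 with cyclic loess, 1.23 with sex as a covariate and 1.31 in the larger array cluster alone, and that of 1.08 in Mef2c-het mice 1.46, 1.17 and 1.38 with normexp, sex and the larger cluster. The cause was not tested. With 1 array left out it was 1.02 to 1.15 in WT and 0.98 to 1.34 in Mef2c-het mice, with 27 to 30 and 29 to 31 genes called. With 1 array left out, 0 genes were called between genotypes, with medians of -0.00 to 0.05 at P30, -0.01 to 0.10 at P1 and -0.07 to 0.02 for the difference. With the replicate number as a block the medians were 0.05 at P30, 0.06 at P1 and 0.00 for the difference. There 0 genes were called, and 3 of all probes were called at P1. An unadjusted p under 0.05 was found for 1 of 35 genes at P30, against 3.74% of all probes. At P1 it was found for 7 of 32 genes against 7.0%, and for the difference for 5 of 36 genes against 4.68%. At P1 and for the difference the share of genes was thus above that of all probes, and the cause was not tested. Deviations of same-numbered arrays had correlations of 0.19, -0.53 and 0.71 at P30 and 0.09, 0.40 and 0.83 at P1, so the numbers were not taken to pair the samples. WT replicates 1, 4 and 8 at P1 correlated best with the Mef2c-het array of the same number, the pairs of 0.71 and 0.83 were arrays that stood apart, and a shared batch was not tested. The change of *S100b* is a bound in both genotypes, *Glul* and *Slc4a4* were detected on 9 and 4 of the 16 arrays, and *Mlc1* could not be measured.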
